A study of Mus musculus with 24 samples.

Results

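Ileal fragments, pieces of the last stretch of the small intestine, were kept for 8 h with the CME(+) form of an extract from wild-type mice (WT CME(+)) or with the solvent DMSO, and their transcripts were counted. The comparison rests on 6 of the 24 libraries of the series: WT CME(+) replicates 1, 3 and 4, and DMSO replicates 2, 3 and 4. They were chosen by title, leaving out the libraries that the submitters had set aside: WT CME(+) replicate 2 for poor mapping, and DMSO replicate 1 because it held 0.5% DMSO in place of 0.6%. The fragments of every group came from male wild-type C57BL/6J mice starved for 4 h. Other groups used beside this comparison were WT CME(-), the CME(-) form of the wild-type extract; Asbt-/- CME(+), the CME(+) form from donors without the ileal bile acid carrier; Asbt-/- CME(-), the CME(-) form from those donors, of which replicate 3 was removed; and the taurine conjugate of chenodeoxycholic acid (tCDCA), each for 8 h. The labels do not spell out CME, and that of the removed WT CME(+) replicate 2 has CAM in its place. CME(+) is taken here as the form depleted of bile acids, since the protocol names extracts both depleted and not depleted. A further reason is that 200 µM is given for replicates 2 to 4 of WT CME(-), Asbt-/- CME(-) and tCDCA, and no concentration for CME(+). The labels give WT CME(+) replicates 3 and 4 different extract codes, and WT CME(-) replicates 3 and 4 carry the same codes. Nothing says whether the treated fragments came from separate mice, and the spread that the p-values rest on may be technical.

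Ileal enterocytes take up conjugated bile acids through the apical carrier Slc10a2 (Asbt), bind them with Fabp6 and export them through the Slc51a and Slc51b heterodimer. Bile acids inside the cell activate the nuclear receptor FXR, which switches on Fgf15, a hormone gene whose product travels to the liver and represses bile acid synthesis. Fgf15 is therefore a sensitive readout of bile acid activity in ileal tissue. FXR also raises Slc51a, Slc51b and Nr0b2 in this tissue, and Slc10a2 is lowered when bile acids are plentiful.

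The 3 WT CME(+) libraries held 2.94 to 3.77 M counts and the 3 DMSO libraries 3.54 to 3.91 M. The column prefix sets replicate 1 of each group, called the first run here, apart from the others, called the second run. The DMSO control held 0.5% in the first and 0.6% in the second, and 200 µM is given for second-run libraries only. These differences cannot be told apart from the run. With DMSO replicate 1 left out, the DMSO group had no used first-run library. WT CME(+) replicate 1 therefore entered the fit through a run effect estimated from the groups with libraries in both runs. Levels are CPM, counts scaled to a common library size, after TMM scaling. They differ between the runs for many genes, so values are set side by side within a run: WT CME(+) replicates 3 and 4 against DMSO replicates 2 to 4, and WT CME(+) replicate 1 against the removed DMSO replicate 1. Mitochondrial rRNA took 19.5 and 22.0% of the counts in WT CME(+) replicates 3 and 4, and 19.5 to 34.6% in the DMSO libraries, with DMSO replicate 3 the highest of all 24. That library also lay at the far end of the second principal component. The ileal label fitted the defining markers: Fabp6 stood at 2891 to 5359 CPM in WT CME(+) and 2973 to 4252 CPM in DMSO, and all 20 enterocyte markers were expressed well enough to be tested.

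Of 13125 genes tested, 23 passed an edgeR adjusted p under 0.05 (called in what follows), which is 0.175% of those tested. Higher in WT CME(+) were 19 genes (0.145%) and lower were 4 (0.0305%). At an unadjusted p under 0.05 there were 1317 genes, against about 656 expected by chance. The called genes that rose included the hormone gene Fgf15, the acute-phase gene Lrg1, the desaturase gene Scd2, the amino acid carrier gene Slc7a5, the mitosis gene Cdc20 and the nuclear lamina gene Lmnb1. Those that fell included the citrate carrier gene Slc13a2, the imprinted long noncoding RNA Meg3 and the predicted gene Gm44292. The rises ran from 1.76-fold to 8.29-fold. The count of called genes was 9 without WT CME(+) replicate 1, 6 without replicate 3 and 13 without replicate 4. It was 29 without DMSO replicate 2, 5 without DMSO replicate 3 and 12 without DMSO replicate 4. Without the run term it was 3, and with DESeq2 95, of which 21 were shared with the 23. In the second run alone it was 14, of which 9 were shared.

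**Figure D1:**
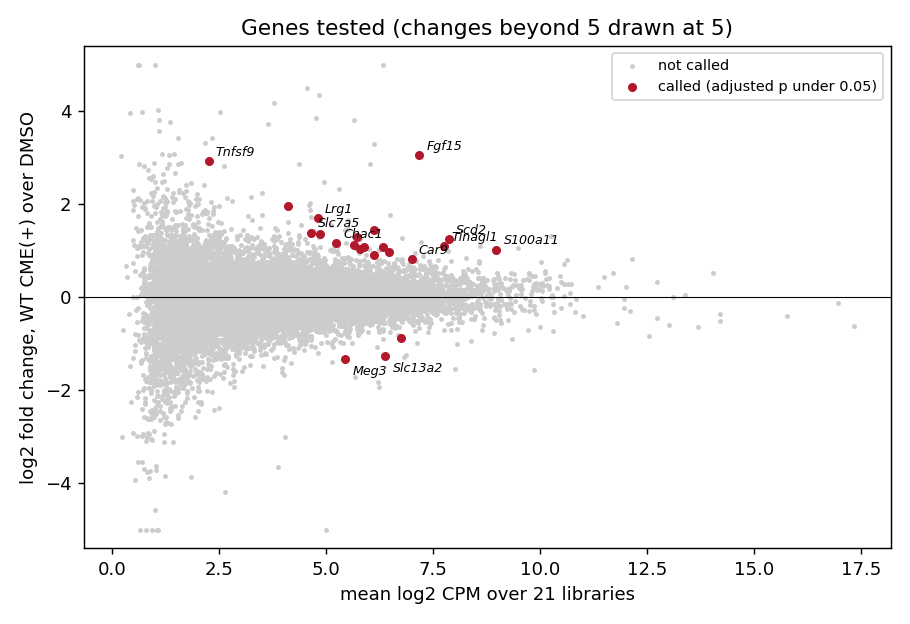
Points are genes tested, each at its mean log2 CPM over the 21 used libraries (x axis) and its fitted log2 fold change of WT CME(+) over DMSO (y axis). Red points are 22 of the 23 called genes, 19 of them above 0, and uncalled genes with changes beyond 5 are drawn at 5.

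Fgf15 (ENSMUSG00000031073) had 75.9, 40.3 and 77.7 CPM in WT CME(+) replicates 1, 3 and 4, and 7.94, 5.94 and 7.198 CPM in DMSO replicates 2, 3 and 4. Every WT CME(+) library stood above every DMSO library, including the removed DMSO replicate 1 of the first run at 10.9 CPM. The second-run means were 59.0 ± 26.4 CPM with WT CME(+) (SD, n = 2) and 7.03 ± 1.01 CPM with DMSO (SD, n = 3). Behind these values lie 358, 111 and 263 counts in WT CME(+), against 26, 17 and 26 counts in DMSO. The lowest WT CME(+) library had an exact 95% Poisson interval of 33.2 to 48.6 CPM and the highest DMSO library one of 5.19 to 11.6 CPM, both for counting error only. The fitted change was 3.05 ± 0.38 log2 units (SE), 8.29-fold (95% interval 2.25 to 3.85, edgeR adjusted p = 0.00138). Fgf15 remained called without each of the 6 libraries in turn, with log2 changes of 2.75 to 3.27 and adjusted p-values up to 0.0286. In the second run alone its log2 change was 3.07 (adjusted p = 4.13e-05).

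The other groups place the WT CME(+) level of Fgf15. WT CME(-) libraries had 312 CPM in the first run and 175, 125 and 105 CPM in the second. Asbt-/- CME(+) libraries had 59.0 CPM and then 48.2, 74.1 and 83.3 CPM. tCDCA libraries had 265 CPM and then 174, 272 and 249 CPM. The used Asbt-/- CME(-) libraries had 317 CPM and then 329 and 216 CPM. All WT CME(+) values thus lay below all WT CME(-) and tCDCA values and within or close to the range of Asbt-/- CME(+). Against tCDCA, Fgf15 was 3.81-fold lower in WT CME(+) (log2 -1.93 ± 0.30, adjusted p = 0.00209). Against WT CME(-) it was at -1.46 ± 0.30 and was not called (adjusted p = 0.255), although its own 95% interval, not adjusted for the number of genes, ran from -2.08 to -0.84. Against Asbt-/- CME(+) the difference was -0.09 ± 0.29 log2 units (95% interval -0.70 to 0.52, adjusted p = 0.9995).

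**Figure D2:**
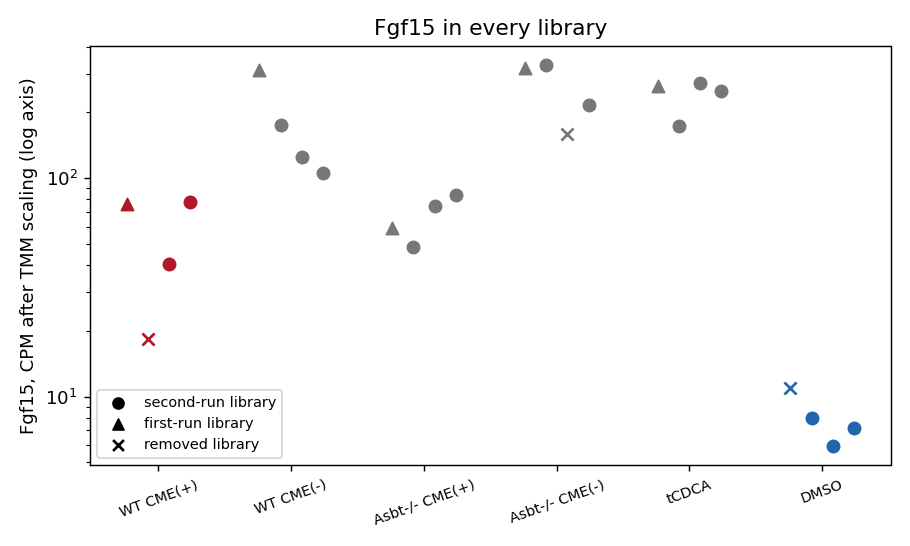
Fgf15 in CPM after TMM scaling (log axis) in each of the 24 libraries, by group, with triangles for first-run, circles for second-run and crosses for removed libraries. The 3 used WT CME(+) libraries sit at 40.3 to 77.7 CPM and the 3 used DMSO libraries at 5.94 to 7.94 CPM, while WT CME(-) and tCDCA libraries sit above 100 CPM.

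Of the FXR list 8 of 13 genes were expressed well enough to be tested, and Fgf15 was the 1 member called (0.175% of all genes tested were). Their median log2 change was 0.17, beside -0.02 over all genes tested. Slc51b, a subunit of the basolateral bile acid exporter, had 465, 323 and 374 CPM in WT CME(+) and 247, 171 and 196 CPM in DMSO. All WT CME(+) libraries were above all DMSO libraries of their run (first-run DMSO, 286 CPM), with a log2 change of 0.73 ± 0.21 that did not pass (adjusted p = 0.168). The partner subunit Slc51a was at 0.37 ± 0.23 (adjusted p = 0.621). Slc10a2, the uptake carrier, had 119, 397 and 363 CPM in WT CME(+) and 657, 405 and 540.1 CPM in DMSO (first-run DMSO, 184 CPM). The second-run WT CME(+) libraries were just below the lowest DMSO library, and the log2 change of -0.68 ± 0.23 did not pass (adjusted p = 0.295; 95% interval -1.16 to -0.20, unadjusted). Against tCDCA, Slc10a2 was 2.14-fold higher in WT CME(+) (1.09 ± 0.22, adjusted p = 0.005). Fabp6 was at -0.31 ± 0.24 (adjusted p = 0.713), and its groups overlapped. Abcc2, an apical export pump that FXR can induce, was at -0.29 ± 0.26 (adjusted p = 0.768). Nr0b2, the repressor SHP, had at most 4 counts in WT CME(+) and 0 in DMSO and was not tested.

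Lrg1 encodes a secreted leucine-rich glycoprotein made in the acute-phase response. It had 46.4, 24.3 and 31.9 CPM in WT CME(+) and 8.86, 6.64 and 11.6 CPM in DMSO. The groups did not overlap in the second run. In the first run WT CME(+) was higher too, but only 1.45-fold above the removed DMSO library at 31.999 CPM. The fitted rise was 3.24-fold (1.69 ± 0.28, adjusted p = 0.00198). Lrg1 remained called without each library in turn (adjusted p up to 0.0462, without DMSO replicate 3). Bcl3, an atypical IκB protein that binds NF-kB subunits, had 39.4, 54.1 and 88.4 CPM in WT CME(+) and 23.2, 43.7 and 39.9 CPM in DMSO, and rose 2.46-fold (1.30 ± 0.28, adjusted p = 0.0352). WT CME(+) replicate 3 was little above the highest DMSO library, and the removed first-run DMSO library was at 21.6 CPM. Tnfsf9, the ligand of the costimulatory receptor 4-1BB, was low throughout, at 8.05, 5.81 and 4.14 CPM in WT CME(+) and 0.916, 0.699 and 0.554 CPM in DMSO (2.93 ± 0.67, adjusted p = 0.0485). The removed first-run DMSO library had 2.32 CPM. Tnfsf9 fell short of the abundance limit for named genes and was chosen after its values were seen. It was not called when any 1 of the 6 libraries was left out (adjusted p 0.0707 to 0.266), and Bcl3 stayed called only without WT CME(+) replicate 3 (adjusted p up to 0.163 otherwise). None of 28 tested inflammatory and NF-kB genes was called, beside 0.175% of all genes tested. Their median log2 change was 0.25, beside -0.02 over all genes tested. Of 15 antimicrobial and IL-22 type epithelial genes none was called either, with a median of 0.40.

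The ATF4 list had 2 called members of 24 tested, beside 0.175% of all genes tested, and both rose. ATF4 is the transcription factor of the integrated stress response, which raises amino acid carriers and synthesis enzymes. Slc7a5, the carrier of large neutral amino acids, had 18.2, 40.7 and 31.3 CPM in WT CME(+) and 14.4, 10.8 and 21.3 CPM in DMSO. Its first-run value was above that of the removed DMSO library, at 9.28 CPM. The rise was 2.61-fold (1.38 ± 0.29, adjusted p = 0.0239). Chac1, which degrades glutathione, had 46.8, 42.9 and 26.0 CPM in WT CME(+) and 18.6, 12.2 and 17.7 CPM in DMSO (1.16 ± 0.26, adjusted p = 0.0499). In the first run it was at 46.8 CPM, against 48.4 CPM with DMSO. Kars, a lysyl-tRNA synthetase gene chosen after its values were seen, rose 1.96-fold (0.97 ± 0.22, adjusted p = 0.0468), with 107, 92.6 and 104 CPM in WT CME(+) and 54.1, 50.7 and 55.1 CPM in DMSO, and it was higher in the first run too (36.0 CPM in the removed DMSO library). Of 24 ATF4 genes tested, 20 were positive, 8 had an unadjusted p under 0.05 and all 8 of these were higher, beside 5.33% of all genes. Their median log2 change was 0.33, beside -0.02 over all genes tested. Without DMSO replicate 3 the adjusted p of Slc7a5 was 0.266, of Chac1 0.377 and of Kars 0.266, and none was called. Slc7a5 was also lost without WT CME(+) replicates 1 and 3 and DMSO replicate 2, Chac1 without every library but WT CME(+) replicate 4, and Kars without every one.

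The RefSeq promoter of Chac1, 250 bases before to 50 after its start (chr2:119350992-119351291, plus strand, GRCm38.p6), is shown because it holds the 1 ATF4 element found among the called genes. Capitals mark the element, read on the minus strand and starting 193 bases upstream:
Chac1 promoter: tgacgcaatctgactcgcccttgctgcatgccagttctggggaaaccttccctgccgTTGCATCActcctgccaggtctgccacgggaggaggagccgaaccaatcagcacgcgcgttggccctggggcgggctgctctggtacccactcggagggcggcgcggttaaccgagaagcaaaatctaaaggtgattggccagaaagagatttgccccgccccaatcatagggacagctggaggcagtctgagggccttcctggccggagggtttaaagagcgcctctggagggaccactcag
The letters searched, on both strands, were TGATGNAA for the ATF4 element, ACGTG for the hypoxia response core and, for the FXR inverted repeat, GGTCA followed after any 1 base by its reverse complement. Promoters of 14 of the 23 called genes were in the table of 27025. The ATF4 letters were in 1 of the 14, against 4.06% of all promoters. The hypoxia core was in 6 of the 14 (S100a11, Car9, Tinagl1, Kars, Suox and Lrg1), against 19.7% of all, and the FXR repeat in 0 of the 14, against 0.0407%. The promoter of Fgf15 was not among those used here. Chac1 held neither of the other motifs. A match describes letters in a window and is not a binding site.

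Scd2, which encodes a stearoyl-CoA desaturase that makes monounsaturated fatty acids, had 94.7, 403 and 352 CPM in WT CME(+) and 182, 107 and 184 CPM in DMSO. Both second-run WT CME(+) libraries stood well above all 3 DMSO libraries, and the first-run value was above the 57.5 CPM of the removed DMSO library. The rise was 2.37-fold (1.25 ± 0.22, adjusted p = 0.00476). Its adjusted p was 0.0917 without DMSO replicate 3, and it was also lost without WT CME(+) replicate 3. Against tCDCA, Scd2 was higher in WT CME(+) by 0.89 ± 0.20 log2 units (adjusted p = 0.0102). None of the 22 cholesterol synthesis genes was called (0.175% of all genes tested were). Their median log2 change was 0.37, 19 were positive, and in 14 both second-run WT CME(+) libraries were above every DMSO library, a pattern that 12.4% of all genes showed. Dhcr7, which completes cholesterol synthesis, was at 0.88 ± 0.25 (adjusted p = 0.168).

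Cdc20, the activator of the anaphase-promoting complex, had 75.4, 58.5 and 47.0 CPM in WT CME(+) and 32.7, 18.5 and 30.7 CPM in DMSO. Its groups did not overlap, and in the first run it stood above the 45.6 CPM of DMSO. It rose 2.18-fold (1.12 ± 0.23, adjusted p = 0.0206). Lmnb1, the nuclear lamina protein lamin B1, had 75.4, 111 and 89.5 CPM in WT CME(+) and 67.5, 34.6 and 40.7 CPM in DMSO. For Lmnb1 the removed first-run DMSO library had 60.4 CPM, and the fitted rise was 2.11-fold (1.08 ± 0.22, adjusted p = 0.0206). Neither was called without DMSO replicate 3 (adjusted p = 0.266 for each) or without WT CME(+) replicate 1 or 3, and Lmnb1 was also lost without DMSO replicate 4. DMSO replicate 3 was the lowest library of the comparison for both genes. Cdc20 was the 1 called gene of 23 tested cell cycle genes, beside 0.175% of all genes tested. Of these cell cycle genes 18 were positive, beside 6371 of all 13125 genes. An unadjusted p under 0.05 was reached by 7 of them, all higher, beside 5.33% of all genes. Their median log2 change was 0.38, and their summed level was 689, 872 and 811 CPM in WT CME(+), against 747, 527 and 613 CPM in DMSO and 676 CPM in the removed first-run DMSO library. In bulk tissue, more cells of a type and more RNA per cell cannot be told apart. Crypt stem cell markers had a median of 0.41 with none of 13 called.

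Tinagl1, a secreted matrix protein, had 142, 268 and 277 CPM in WT CME(+) and 158, 139 and 99.9 CPM in DMSO, and rose 2.13-fold (1.09 ± 0.19, adjusted p = 0.00432). Both second-run WT CME(+) libraries were far above the DMSO range, and the removed first-run DMSO library had 118 CPM. Its one lost call was without DMSO replicate 4 (adjusted p = 0.0628). Capn2, the catalytic subunit of the protease m-calpain, had 63.6, 20.0 and 23.6 CPM in WT CME(+) and 9.47, 7.69 and 6.92 CPM in DMSO, and rose 2.56-fold (1.36 ± 0.28, adjusted p = 0.0206). Its first-run order was the opposite, at 63.6 CPM with WT CME(+) against 82.1 CPM with the removed DMSO library. S100a11, a calcium-binding protein, had 801, 517 and 387 CPM in WT CME(+) and 283, 227 and 199.9 CPM in DMSO (1.02 ± 0.21, adjusted p = 0.0258), beside 824 CPM in first-run DMSO. The actin regulator Cap1 rose 1.88-fold (0.91 ± 0.19, adjusted p = 0.0206), with 141, 82.8 and 78.9 CPM in WT CME(+) and 53.2, 37.4 and 40.7 CPM in DMSO. In the removed first-run DMSO library Cap1 had 90.7 CPM. S100a11 and Cap1 were chosen after their values were seen. None of the 3 was called without DMSO replicate 3 (adjusted p 0.236 for Capn2, 0.256 for S100a11 and for Cap1), without DMSO replicate 4 or without WT CME(+) replicate 3. Suox, the mitochondrial sulfite oxidase, rose 2.11-fold (1.07 ± 0.24, adjusted p = 0.0468) and was called without only 1 of the 6 libraries (adjusted p up to 0.374).

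Car9, a cell-surface carbonic anhydrase and a classic target of hypoxia-inducible factors, had 83.5, 167 and 179 CPM in WT CME(+) and 104, 95.8 and 105 CPM in DMSO. The second-run groups stood apart, while the first-run WT CME(+) library lay just under the removed DMSO library at 88.5 CPM. The rise was 1.76-fold (0.81 ± 0.17, adjusted p = 0.0206), and it was called without 1 of the 6 libraries only, DMSO replicate 2 (adjusted p up to 0.236, without DMSO replicate 3). The 22 tested hypoxia and glycolysis genes had a median log2 change of 0.25, beside -0.02 over all genes tested. Car9 was the 1 called gene among them, beside 0.175% of all genes tested. Its RefSeq promoter (chr4:43506776-43507075, plus strand, GRCm38.p6) is shown because the hypoxia core lies close to the start, 18 bases upstream, with the core in capitals as read on the minus strand:
Car9 promoter: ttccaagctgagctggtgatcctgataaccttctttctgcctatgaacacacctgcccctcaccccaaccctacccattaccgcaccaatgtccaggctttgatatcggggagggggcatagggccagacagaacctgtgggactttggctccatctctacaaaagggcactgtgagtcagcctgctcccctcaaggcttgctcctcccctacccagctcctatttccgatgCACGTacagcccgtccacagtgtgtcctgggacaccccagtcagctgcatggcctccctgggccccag

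**Figure D3:**
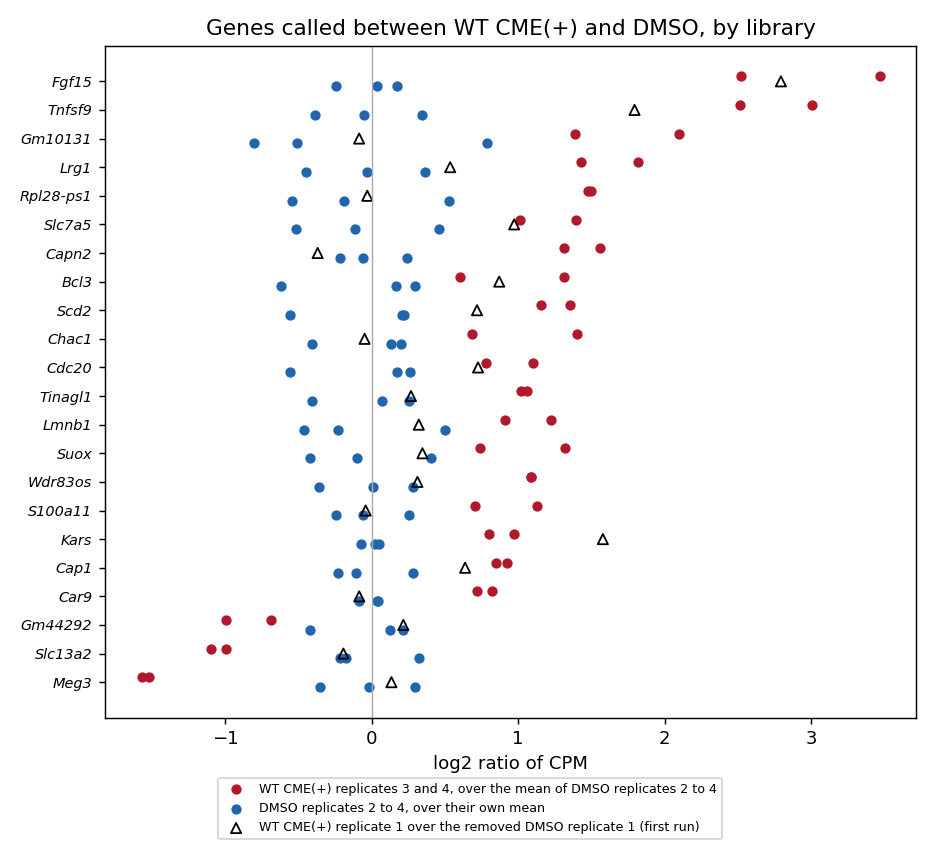
For 22 of the 23 called genes, log2 ratios of CPM are drawn for WT CME(+) replicates 3 and 4 (red) and DMSO replicates 2 to 4 (blue), over the mean of those DMSO libraries, and for WT CME(+) replicate 1 over the removed DMSO replicate 1 (open triangles). Red and blue points do not overlap for any gene drawn, but the genes were called from these same libraries. Over all genes tested, both second-run WT CME(+) libraries were above every used DMSO library in 12.4% and below in 12.1%. Of the 19 genes called higher, 6 have their triangle below 0.

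Slc13a2, the brush border cotransporter of citrate and succinate, fell. It had 24.4, 104 and 111 CPM in WT CME(+) and 191, 196 and 278 CPM in DMSO, with the second-run groups well apart. In the first run it had 24.4 CPM, against 27.9 CPM in the removed DMSO library. The fall was 2.40-fold (-1.26 ± 0.23, adjusted p = 0.00961). It was lost without WT CME(+) replicate 1 and without DMSO replicate 4 (adjusted p up to 0.0828). Against tCDCA, Slc13a2 was higher in WT CME(+) by 0.81 ± 0.22 log2 units (adjusted p = 0.0474). Meg3 had 85.4, 13.4 and 13.0 CPM in WT CME(+) and 30.2, 38.1 and 47.3 CPM in DMSO, 2.50-fold lower in the fit (-1.32 ± 0.29, adjusted p = 0.0485). The first-run pair, at 85.4 CPM with WT CME(+) and 77.8 CPM with DMSO, did not share that direction, and Meg3 stayed called only without DMSO replicate 2 (adjusted p up to 0.262 otherwise). Gm44292, chosen after its values were seen, was at -0.88 ± 0.19 (adjusted p = 0.0291) and was higher, not lower, in the first-run pair (240 CPM with WT CME(+) and 206 CPM with DMSO). It stayed called only without DMSO replicate 2 (adjusted p up to 0.256 otherwise). Just outside the threshold, and not called, lay the splicing-associated gene Pnisr (-0.91, adjusted p = 0.0514), the peptidase gene Apeh (-1.34, adjusted p = 0.0561) and the proline carrier gene Slc6a20a (-1.07, adjusted p = 0.0669).

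The pseudogene Rpl28-ps1 had 91.1, 74.5 and 75.4 CPM in WT CME(+) and 18.3, 23.4 and 38.5 CPM in DMSO (1.44 ± 0.28, adjusted p = 0.0242), beside 93.0 CPM in the removed first-run DMSO library. Its parent Rpl28 had 225, 274 and 268 CPM in WT CME(+) and 177, 238 and 322 CPM in DMSO. Rpl28-ps1 and the predicted gene Gm10131 (1.96 ± 0.43, adjusted p = 0.0468) may share reads with near-identical copies, and Wdr83os (1.03 ± 0.20, adjusted p = 0.018) overlaps Wdr83 on the opposite strand, and no source used here gives the strand setting of the counting. The 3 are uncertain for that reason, the last 2 were chosen after their values were seen, and none was called without DMSO replicate 3 (adjusted p 0.266 for Rpl28-ps1, 0.305 for Gm10131 and 0.256 for Wdr83os).

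No list of absorptive genes had a called member, beside 0.175% of all genes tested. All 16 tested brush border peptidase and disaccharidase genes had negative changes, with a median log2 change of -0.45. The 6 with an unadjusted p under 0.05 were all lower, beside 4.71% of all genes. Treh, the disaccharidase trehalase, was at -0.94 ± 0.34 (adjusted p = 0.301), and Ggt1, a glutathione-cleaving peptidase, at -0.73 ± 0.22 (adjusted p = 0.204). All 20 enterocyte markers were negative too, with a median of -0.33. Their summed level was 10118, 12219 and 13801 CPM in WT CME(+) and 13637, 18368 and 15278 CPM in DMSO, and 8233 CPM in the removed first-run DMSO library. The second-run sums overlapped, and in the first run the WT CME(+) sum was the higher. Sugar carriers had a median of -0.55 over 6 genes, amino acid and peptide carriers -0.41 over 12 and genes of lipid absorption -0.34 over 19. Without scaling factors the median of all genes moved to 0.12, and these medians were then -0.31 for brush border enzymes, -0.17 for enterocyte markers, -0.39, -0.27 and -0.19 for the 3 carrier and lipid lists.

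No marker of other cell types was called either, beside 0.175% of all genes tested. Smooth muscle markers had a median of -0.46 over 12 genes and fibroblast markers -0.47 over 13, with 11 negative in each list. An unadjusted p under 0.05 was reached by 5 smooth muscle markers and 1 fibroblast marker, all lower, beside 4.71% of all genes. Both second-run WT CME(+) libraries were below every used DMSO library for 7 smooth muscle and 5 fibroblast markers, beside 12.1% of all genes. Paneth cell markers had a median of 0.34 over 16 genes, with summed levels of 40404, 35632 and 36199.7 CPM in WT CME(+) and 27854, 34025 and 33078 CPM in DMSO, and 54841 CPM in the removed first-run DMSO library. Interferon-stimulated genes had a median of -0.58 over 27 genes. Their summed level was 667 and 706 CPM in second-run WT CME(+) libraries and 721, 1564 and 878 CPM in DMSO, with DMSO replicate 3 the highest. In the first run the sum was 1455 CPM with WT CME(+), against 973 CPM with the removed DMSO library. The 11 tested mRNAs of the mitochondrial genome were all negative, with a median of -0.50, and DMSO replicate 3, which had the most mitochondrial rRNA, had the highest sum. The part of this library, of its RNA composition and of these marker lists in the called genes was not tested beyond the values without it.

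**Figure D4:**
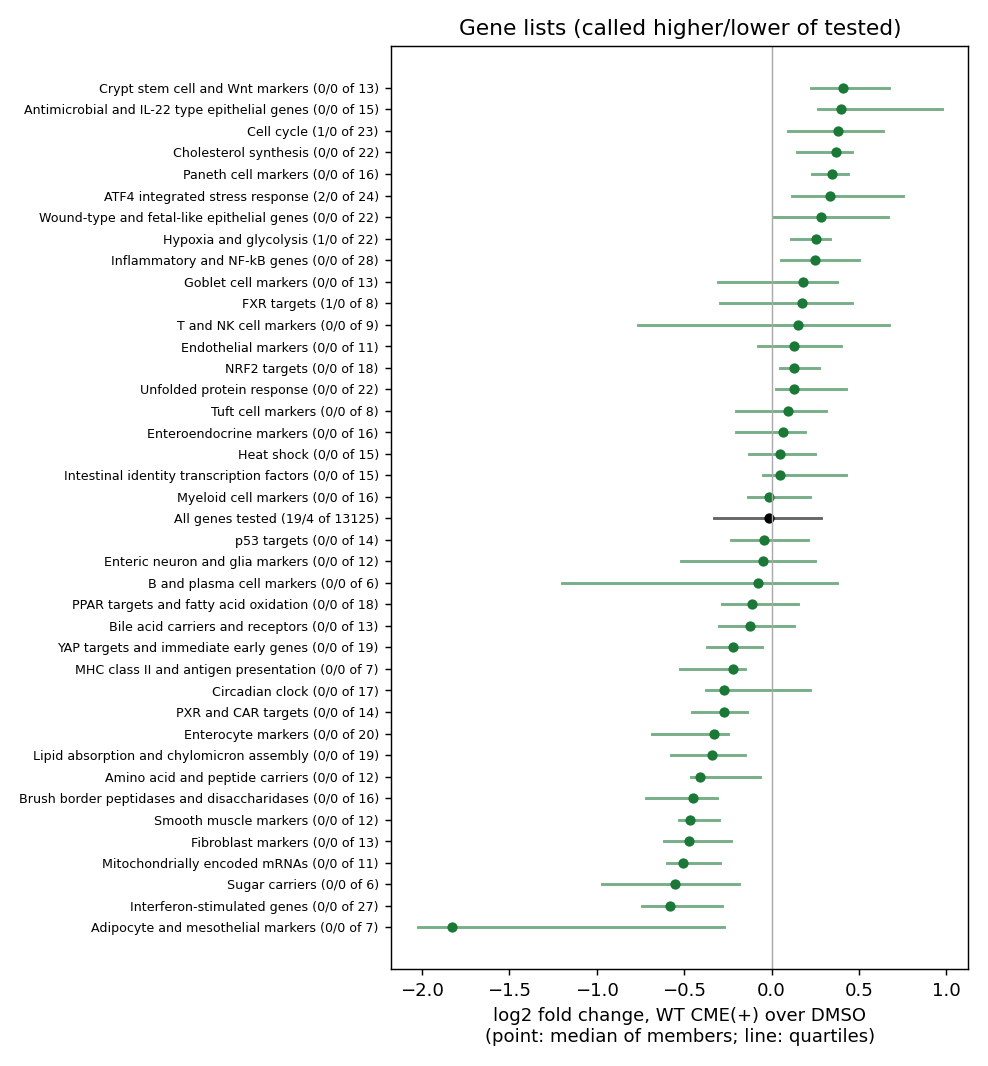
Median (point) and quartiles (line) of the log2 fold change of WT CME(+) over DMSO for each list with at least 6 tested genes, with all 13125 genes in black, and beside each name the called genes higher and lower of those tested. Medians run from -1.83 for 7 low adipocyte and mesothelial markers to 0.41 for crypt stem cell markers, and the all-gene median is -0.02.

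Direct comparisons with the other treatments show how far WT CME(+) differs from them. Against WT CME(-), 0 genes were called by edgeR (831 at an unadjusted p under 0.05, 12 called by DESeq2). The genes with the smallest p were Cdx2, an intestinal identity factor (1.26 ± 0.27), Cdc42ep2 (0.96 ± 0.21) and Gna11 (0.72 ± 0.16), each at an adjusted p of 0.255. Same-numbered second-run libraries of these 2 groups share an extract code, and with the replicate number as a block the count was 0 as well. Against Asbt-/- CME(+), 0 genes were called (556 at an unadjusted p under 0.05, 0 by DESeq2), and Prpf4 (-1.13 ± 0.26), Tat (-1.01 ± 0.28) and Mef2c (-1.34 ± 0.38) had the smallest p (adjusted p = 0.9995). Without WT CME(+) replicate 1, 1 gene was called in each of these comparisons. It was Adipoq, an adipocyte hormone gene, with log2 changes of 5.91 and 4.36. Neither result shows that the treatments act alike.

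Against tCDCA, 203 genes were called, 1.55% of those tested, 139 higher in WT CME(+) and 64 lower. Gna11, a G protein alpha subunit, was at 716 ± 29.98 CPM with WT CME(+) (SD, n = 2) and 220 ± 16.4 CPM with tCDCA (SD, n = 3) in the second run (1.42 ± 0.16, adjusted p = 1.44e-06). Acta1, skeletal muscle actin, was 5.78-fold higher in WT CME(+) (2.53 ± 0.31, adjusted p = 3.35e-06). The brush border genes Slc6a19, a neutral amino acid carrier (1.45 ± 0.20, adjusted p = 8.67e-05), and Myo1a, the microvillus myosin (1.22 ± 0.19, adjusted p = 0.000193), were higher too. Tnfrsf12a, the receptor of the cytokine TWEAK, was lower (-1.29 ± 0.20, adjusted p = 0.000245). The count was 80 without WT CME(+) replicate 3, 54 without replicate 4, 112 without tCDCA replicate 4 and 0 without the run term.

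Each treatment was also compared with the same 3 DMSO libraries, so the following changes are not independent of those above. Fgf15 was at 3.05 with WT CME(+), 4.51 with WT CME(-), 3.14 with Asbt-/- CME(+), 5.21 with Asbt-/- CME(-) and 4.98 with tCDCA. Scd2 was at 1.25 with WT CME(+), 0.75 with WT CME(-), 1.40 with Asbt-/- CME(+), 0.86 with Asbt-/- CME(-) and 0.36 with tCDCA. Slc13a2 was at -1.26 with WT CME(+), -1.72 with WT CME(-), -1.43 with Asbt-/- CME(+), -1.73 with Asbt-/- CME(-) and -2.07 with tCDCA. Beside the 23 calls for WT CME(+), with 3 used libraries, tests against DMSO called 39 genes for WT CME(-) (0.297%), 303 in the Asbt-/- CME(+) group (2.31%) and 746 for tCDCA (5.68%), with 4 used libraries each. Asbt-/- CME(-), with 3, had 125 (0.952%). Brush border enzymes, at a median of -0.45 with WT CME(+), were at -0.57 with WT CME(-) and -0.73 with Asbt-/- CME(+). Their median was -0.78 with Asbt-/- CME(-) and -1.46 with tCDCA.

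**Figure D5:**
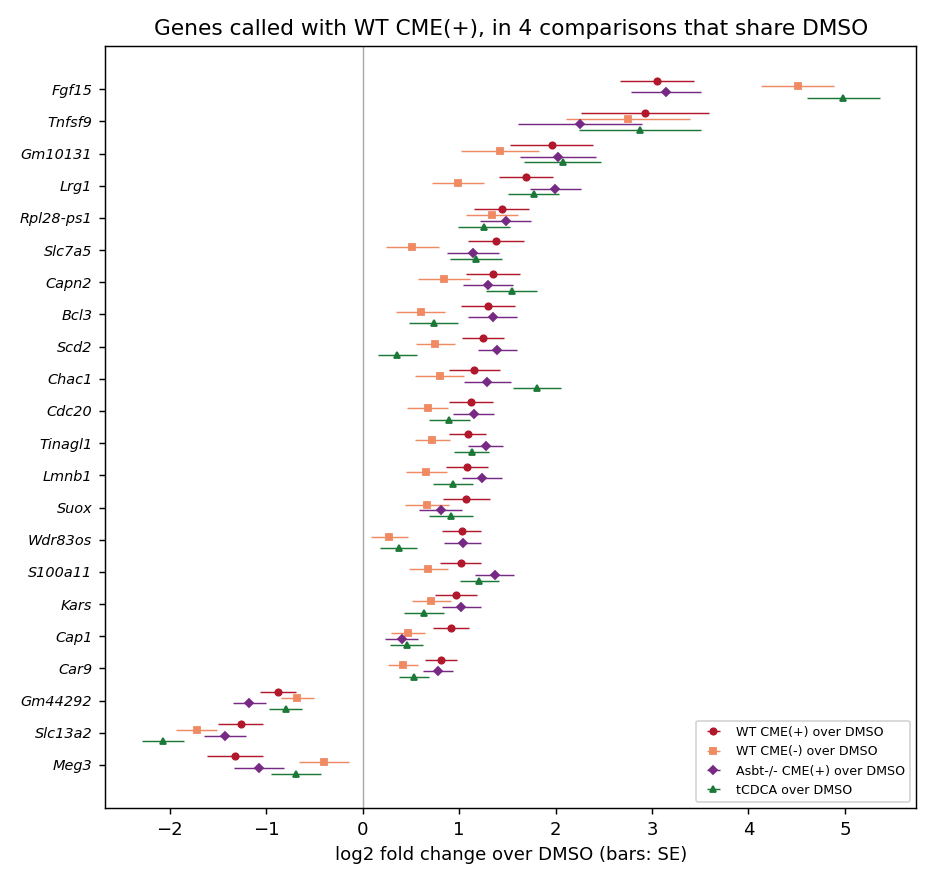
Fitted log2 fold changes over DMSO (points) with SE (bars) for 22 of the 23 genes called with WT CME(+), in 4 comparisons that share the same 3 DMSO libraries. Of these, Fgf15 has the widest spread, from 3.05 with WT CME(+) to 4.98 with tCDCA.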

How the data were processed

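QuantSeq libraries, which read mRNAs near the 3′ end, were made from 100 ng of RNA each, per the labels' protocols. The deposited table holds unnormalized integer counts by gene for 24 libraries. The submitters' processing notes name HISAT2, cutadapt, FastQC, Picard and the build GRCm39. No source used here gives the counter, the strand setting or the annotation. Of 57126 identifiers, 51884 matched a symbol.

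Tests used edgeR 4.0.16 under R 4.3.3 (filterByExpr, TMM, robust quasi-likelihood fit with terms for group and run over the 21 used libraries), two-sided, with Benjamini-Hochberg adjustment over 13125 genes in each of 8 contrasts: WT CME(+) against DMSO, WT CME(-), Asbt-/- CME(+) and tCDCA, and the 4 other groups against DMSO. The steps were tested on simulated data. DESeq2 1.42 and limma 3.58.1 served as alternatives, beside other scalings, filters, covariates and sample sets. Depth was 2.76 to 5.6 M counts per used library. No replicates were identical (lowest chi-square per degree of freedom within these 2 groups 7.32).

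The members, the 41 gene lists and the tests were chosen with earlier results of these data known. The rule for named genes took 7 FXR genes, the 12 largest called changes in each direction among genes with a standard symbol whose mean log2 CPM reached 3, up to 5 called members of each list, and the smallest-p members of lists with none. Deviations of same-numbered WT CME(+) and DMSO replicates correlated at -0.0446 (number 3) and -0.000907 (number 4). With 2 second-run WT CME(+) libraries these deviations mirror each other, so the check cannot decide whether the numbers are pairs. They were not taken as pairs there. WT CME(+) and WT CME(-) replicates 3 and 4 share extract codes in the labels. The reported fit did not pair them, and the replicate block served as an alternative there. Promoters came from RefSeq (GRCm38.p6) and were searched in Python 3.11.15. Some results are not reported here.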

Additional observations from a re-analysis of the deposited data

Results flagged for a closer look

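WT CME(+) replicate 2, which the submitters removed for poor mapping and which entered no comparison above, has CAM in place of CME in its treatment label, so what it was treated with is uncertain. It stood above every used DMSO library, beyond its own 95% counting interval, for 8 of the 19 genes called higher. Over all genes tested, 10.1% showed this pattern in this library. The 19 genes were called against the same DMSO libraries, which favours the pattern, so it is not separate support for the calls. Marker sums of this library stood apart too. They were 10364 CPM for Paneth cell markers, against 27854 to 34025 CPM in DMSO, and 20733 CPM for enterocyte markers, against 13637 to 18368 CPM in DMSO. Their part in these values was not tested. Fgf15 was at 18.3 CPM there (interval 13.4 to 24.5), against at most 7.94 CPM in DMSO, and so below the 40.3 to 77.7 CPM of the used WT CME(+) libraries. Tinagl1 was at 231 CPM, against at most 158 CPM in DMSO. Cap1 was at 70.2 CPM, against at most 53.2 CPM. Capn2 was at 15.1 CPM, against at most 9.47 CPM. Rpl28-ps1 was at 48.2 CPM, against at most 38.5 CPM. S100a11 was at 364 CPM, against at most 283 CPM. Bcl3 was at 71.7 CPM, against at most 43.7 CPM. Kars was at 80.1 CPM, against at most 55.1 CPM. Lrg1, at 7.17 CPM, and Scd2, at 139 CPM, were within the DMSO range in that library. Car9, at 71.3 CPM, and Chac1, at 10.8 CPM, both called higher, were below every used DMSO library, whose lowest values were 95.8 and 12.2 CPM. Meg3, called lower, was at 51.8 CPM and above every one, against at most 47.3 CPM in DMSO.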

How the results depend on the processing

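The 23 calls against DMSO became 95 with DESeq2, 14 with limma-voom, 10 without scaling factors, 83 without a low-count filter, 3 without the run term and 14 in the second run alone. They became 4 with DMSO replicate 1 added, 2 with WT CME(+) replicate 2 added and 2 with all 24 libraries. Leaving out 1 library gave 5 to 29. Leaving out DMSO replicate 3 and tCDCA replicate 3, chosen after seeing the data, gave 3. With the replicate block in place of the run term, the count was 16 against DMSO, 0 against WT CME(-), 0 against Asbt-/- CME(+) and 155 against tCDCA. Against WT CME(-), DESeq2 called 12, the second run alone 1 (Defa34, a near-copy defensin), and leaving out 1 library 0 to 1. Against Asbt-/- CME(+) leaving out 1 library gave 0 to 1. Against tCDCA the count was 363 with DESeq2, 0 without the run term and 54 to 295 with 1 library left out. The cause of these shifts was not tested. Without the run term the log2 change turned to 0.29 for Gm44292, 0.38 for Dcn, 0.098 for Cxcl10 and 0.052 for Fabp6. With all 24 libraries it turned to -0.18 for Mmp7, -0.16 for Defa24 and 0.043 for Fabp6. Of 481 results for the 23 called genes over 21 alternatives, 233 kept their call and direction, 247 lost the call and 1 reversed. Fgf15 stayed called in 18, Lrg1 in 18, Tinagl1 in 17 and Scd2 in 15. Fgf15 was lost with limma-voom, with WT CME(+) replicate 2 added and without replicate 3 of tCDCA and DMSO, at log2 changes of 2.72 to 3.27 over the 21. Genes at a few counts, such as Tnfsf9 with DMSO, are limited by depth.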

Other observations

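Adipoq, an adipocyte hormone gene outside the called set, had 42.4, 3.63 and 7.98 CPM in WT CME(+) replicates 1, 3 and 4, and 0, 0 and 0.554 CPM in DMSO replicates 2, 3 and 4. The removed WT CME(+) replicate 2 and DMSO replicate 1 were at 0. Replicate 1 of the other treatments, all first-run libraries, held Adipoq too. It was at 73.7 CPM with tCDCA, 49.97 CPM with Asbt-/- CME(+), 36.3 CPM with Asbt-/- CME(-) and 13.7 CPM with WT CME(-). Summed adipocyte and mesothelial markers were 245, 49.4 and 64.7 CPM in WT CME(+) and 51.3, 31.5 and 61.5 CPM in DMSO. WT CME(+) replicate 1, the one first-run library among these, was the highest of them. Reg4, a secreted lectin gene of the gut epithelium, had 1120.0 and 1141 CPM in second-run WT CME(+) libraries and 650.4, 355 and 537 CPM in DMSO, and 54.9 CPM with WT CME(+) against 83.7 CPM with DMSO in the first run (1.05 ± 0.28, edgeR adjusted p = 0.168). Irf7, an interferon regulatory factor, was at -0.97 ± 0.26 (edgeR adjusted p = 0.127), with 20.1, 22.2 and 17.4 CPM in WT CME(+) and 33.6, 45.1 and 44.6 CPM in DMSO. The removed first-run DMSO library had 27.5 CPM, and the removed WT CME(+) replicate 2 had 65.4 CPM, above every DMSO library.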
